A study of Sus scrofa with 22 samples.

Results

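The mitochondrial ribosomal protein genes were followed through 4 ages of pig skeletal muscle. They were taken as the genes whose single annotated symbol begins with MRPL or MRPS and a number, and 58 of the 6765 named genes on the array met this rule, 36 with an MRPL and 22 with an MRPS symbol. Each was read by the probe set (the group of short probes that reports one transcript) with its highest mean over all arrays. Levels are Affymetrix signals on a linear scale, and changes are differences of log2(signal + 16). MRPL12 had no probe set under its own symbol and is not reported.

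Mitochondria keep a small genome that encodes core subunits of the respiratory chain, and they translate its messages on ribosomes of their own. The RNA of these ribosomes comes from the mitochondrial genome, whereas every protein is encoded in the nucleus, made in the cytosol and imported. The large subunit joins amino acids and releases the new chain through a tunnel at the inner membrane, and the small subunit binds and decodes the mRNA. Many of the proteins have relatives in bacterial ribosomes and many others are found only in mitochondria. By their place in the ribosome, 37 of the genes encode large-subunit proteins, MRPS30 among them despite its symbol, and 20 encode small-subunit proteins. MRPS36 keeps a ribosomal symbol, but its product is a subunit of the 2-oxoglutarate dehydrogenase complex of the citric acid cycle.

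The animals were offspring of German Landrace gilts that all ate an adequate protein (AP) diet in pregnancy, so diet did not differ between groups. The 6 fetuses were taken 94 days after conception (94 dpc). The born animals were 6 at 1 day (1 dpn), 6 at 28 days (28 dpn) and 4 at 188 days (188 dpn) of postnatal life. Each array held 1 animal. Age comparisons ask how these transcripts change from late fetal life through birth and weaning age to the grown pig. Each stage drew its 6 or 4 animals from 3 gilts, so some replicates of every stage are littermates. Which gilt bore which animal is unknown here, and p-values that treat littermates as independent are too small.

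The sample labels name liver and the series title names muscle. All 14 measured skeletal muscle markers were bright, with a summed signal of 317550 to 406200 per array at 94 dpc, and creatine kinase of muscle (CKM) had stage mean signals of 38685 to 79342. The 16 liver markers summed to 2654 to 59732 per array, and stage means of albumin (ALB) were 291 to 904, with 4 animals below background. The tissue is therefore called muscle after its markers. In the 1 dpn group, 4 of 6 arrays had a GAPDH signal 3.01 to 7.16 times higher at the 3' than at the 5' end of the transcript. The other 18 arrays had ratios of 0.795 to 1.37. The 4 are called the uneven arrays, and counts and changes of the main genes that use the 1 dpn group are given with and without them. In bulk tissue, fewer cells of a type and less RNA per cell cannot be told apart.

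Across the 4 stages, 44 of the 58 genes differed (limma moderated F test, adjusted p under 0.05), against 51.4% of all 23999 probe sets. Without the uneven arrays 48 differed, against 50.4%, and with only the uneven arrays as newborns 52 differed, against 55.8%. The median signal of the 58 genes, on the log2 scale, was 10.44 to 10.55 in the fetuses. It was 10.71 to 11.71 at 1 dpn, 10.68 to 10.93 at 28 dpn and 10.60 to 10.71 at 188 dpn, so no animal born had a median as low as any fetus. All 58 genes were above background, a signal of 69.7, in every animal. The stage mean was highest at 1 dpn for 32 genes, at 188 dpn for 15, at 28 dpn for 7 and at 94 dpc for 4. On the arrays with even signal these counts were 41, 11, 6 and 0.

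**Figure D1:**
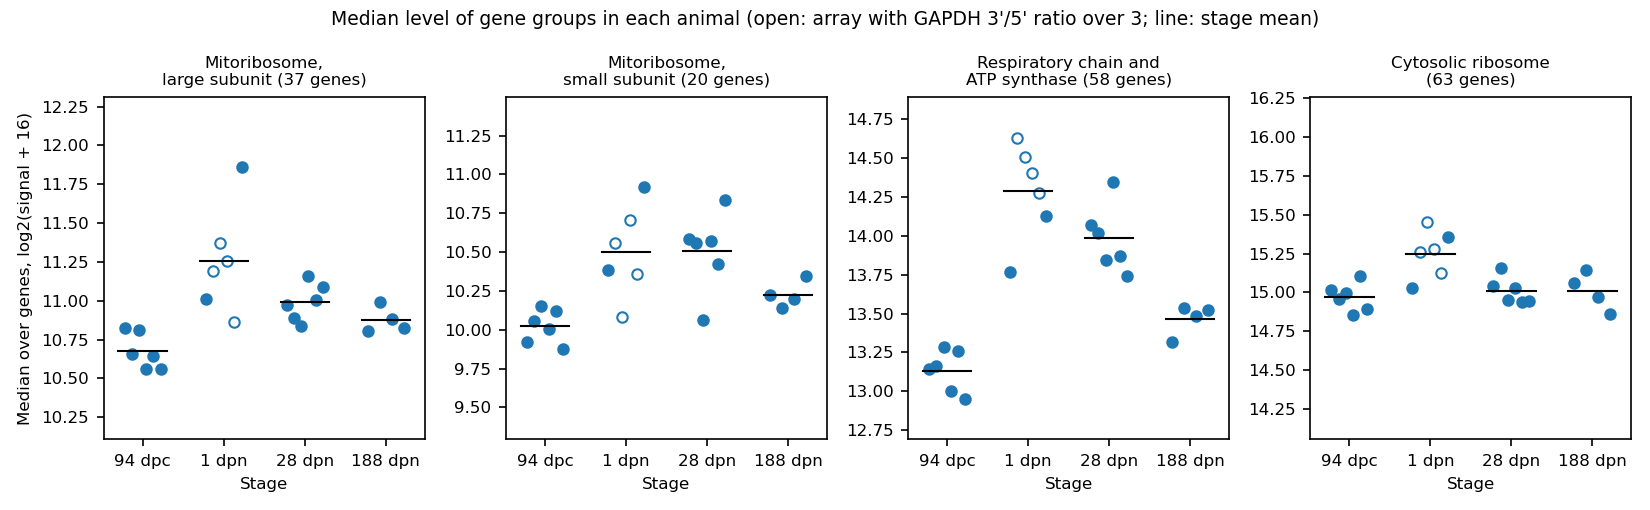
Median log2(signal + 16) over the genes of each group (y axis) in every animal, by stage (x axis), with the mean of each stage as a line and the uneven arrays as open points. The 37 large-subunit and 20 small-subunit genes are set beside 58 respiratory chain and ATP synthase genes and 63 cytosolic ribosomal protein genes, each panel spanning the same range of log2 units. The fetal medians of the large subunit, 10.56 to 10.83, lie below all those at 1 dpn (10.86 to 11.86) and 28 dpn (10.84 to 11.16) and overlap those at 188 dpn (10.80 to 10.99).

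From 94 dpc to 1 dpn, 33 of the 58 genes rose and 1 fell, while 10.9% of all probe sets rose and 21.7% fell. The median change of the 58 genes was 0.64 and that of all probe sets -0.08. A gene is said to rise or fall where limma gave an adjusted p under 0.05. In 24 of the 33 the lowest newborn exceeded the highest fetus, and 5.11% of all probe sets were called higher without overlap. Without the uneven arrays, with 2 newborns left, 37 rose and 1 fell (background 7.79% and 17.6%), with a median of 0.76. With only the uneven arrays as newborns, 32 rose and 7 fell (13.3% and 22.8%), with a median of 0.55. The rise passed the test in all 3 fits for 26 of the 33 genes. It was lost without the uneven arrays for MRPL45, MRPL52 and MRPS12, named here after their values were seen. The 58 genes did not move as a block at this step: their changes ran from -1.32 to 1.69, and 24 were not called.

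Among large-subunit proteins near the peptidyl transferase centre, where peptide bonds form, MRPL2 showed the largest rise of the 58 with all arrays, though not without the uneven ones, where MRPL38 rose more. Its fetal signals ran from 1490 through a median of 1682 to 2027. At 1 dpn they ran from 2296 through 6472 to 7540. At 28 dpn they were 2091 to 3066 with a median of 2740, and at 188 dpn 1549, 1797, 1595 and 1794. Newborns lay above all fetuses, and the 4 oldest animals lay back within the fetal range. The log2 rise to 1 dpn was 1.69 ± 0.22 (SE; 3.22-fold; limma, adjusted p = 5.6e-06) and 1.29 without the uneven arrays. The fall to 28 dpn was -1.05 ± 0.22 (adjusted p = 0.0016), and without the uneven arrays it was -0.66 (adjusted p = 0.16). The newborn of 2296 was an even array (replicate 1), while the other even array gave 7540. A second MRPL2 probe set of like brightness was not called at birth with all arrays (0.39, adjusted p = 0.26) and rose without the uneven ones (1.15, adjusted p = 0.0022). To 28 dpn it changed by 0.02 (adjusted p = 0.98) with all arrays and fell by 0.74 (adjusted p = 0.047) without the uneven ones.

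MRPL3, another protein of this centre, had signals of 1613 to 2315 in fetuses (median 1898) and 2429 to 3869 in newborns (median 3348), with no overlap. It rose by 0.75 ± 0.15 (adjusted p = 6.3e-04; 0.97 without the uneven arrays). A second probe set of MRPL3 fell by 1.68 (adjusted p = 0.014) with all arrays and changed by 0.55 (adjusted p = 0.053) without the uneven ones, so the gene's direction at birth depends on the probe set when those arrays are used.

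The central protuberance is the crown of the large subunit. Its member MRPL38 ran from 458 through 746 to 850 in fetuses and from 1528 through 2142 to 2728 in newborns. It stayed at 1327 to 2002 at 28 dpn (median 1768) and read 1239, 1184, 1187 and 1314 at 188 dpn. All born animals lay above all fetuses. The rise to 1 dpn was 1.63 ± 0.17 (3.1-fold; adjusted p = 3.5e-07), 1.92 on the even arrays and 1.49 on the uneven ones. From 94 dpc to 188 dpn it was 0.83 ± 0.19 (adjusted p = 0.0016). Of 6 central protuberance genes measured, 2 rose at birth with all arrays and 3 without the uneven ones. MRPS30 was not called at birth (0.41 ± 0.19, adjusted p = 0.11), nor was it called over the 4 stages, and its stage ranges of 153 to 251, 179 to 405, 175 to 363 and 182 to 266 overlapped throughout.

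Around the exit tunnel, 4 of 6 measured genes rose at birth, with all arrays and without the uneven ones. The 4 were not the same genes. Without the uneven arrays MRPL45 lost the call and MRPL4, named after its values were seen, gained it. MRPL17 was at 3960 to 5292 in fetuses (median 4958) and 4095 to 12499 in newborns (median 8574). It then lay at 4343 to 5069 at 28 dpn (median 4726) and at 4161, 4982, 4977 and 6072 at 188 dpn. The newborn range overlapped that of every other stage, and its lowest value was from an uneven array. The rise was 0.77 ± 0.20 (adjusted p = 0.004; 1.14 without the uneven arrays) and the fall to 28 dpn -0.79 ± 0.20 (adjusted p = 0.0057; -1.15). MRPL44, which has a ribonuclease III fold, rose from 850 to 1415 (median 1308) to 1501 to 2404 (median 1613). Its change of 0.54 ± 0.17 (adjusted p = 0.018; 0.83 without the uneven arrays) fell short of the threshold without fetus 6 (adjusted p = 0.057).

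Among large-subunit proteins with bacterial relatives, MRPL32, MRPL35 and MRPL33 stood high at 1 dpn. MRPL32, whose precursor is cut by a mitochondrial protease before it enters the ribosome, was at 350 to 717 in fetuses (median 565) and 978 to 2245 in newborns (median 1719). At 28 dpn it was at 503 to 953 (median 643), and at 188 dpn it read 568, 705, 667 and 682. No newborn overlapped another stage. It rose by 1.57 ± 0.21 (adjusted p = 5.0e-06; 1.28 without the uneven arrays) and fell by 1.27 ± 0.21 (adjusted p = 1.3e-04; -0.98, adjusted p = 0.027). A second MRPL32 probe set, above background in every animal, was called in neither step (-0.09, adjusted p = 0.77, and 0.30, adjusted p = 0.31; -0.11 and 0.32 without the uneven arrays), so the peak was seen by only 1 of the gene's 2 probe sets.

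MRPL35 had the same shape. Fetal signals were 950 to 1118 (median 1009), newborn signals 1977 to 3388 (median 2865), and those at 28 dpn 969 to 1285 (median 1137). The 188 dpn animals read 991, 990, 953 and 1024. The lowest newborn had more signal than any animal of another stage. The rise was 1.44 ± 0.14 (2.71-fold; adjusted p = 1.5e-07; 1.34 without the uneven arrays). The fall to 28 dpn was -1.27 ± 0.14 (adjusted p = 1.7e-06; -1.17 without them, adjusted p = 4.1e-04). Its other 2 probe sets were below background in 4 and 14 animals.

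By its brighter probe set, MRPL33 peaked at 1 dpn and rose again in the grown pigs. It ran from 1608 to 2192 in fetuses (median 1787), 3469 to 4735 in newborns (median 4101) and 1914 to 2432 at 28 dpn (median 2220), and read 2898, 3130, 3021 and 3481 at 188 dpn. Only the fetal and 28 dpn ranges overlapped, apart from 1 grown pig (3481) that passed the lowest newborn (3469). The steps were 1.15 ± 0.13 (adjusted p = 9.8e-07; 1.09 without the uneven arrays), -0.88 ± 0.13 (adjusted p = 4.9e-05; -0.82) and 0.50 ± 0.15 (adjusted p = 0.028). A second MRPL33 probe set went the other way from 94 dpc to 188 dpn, by -1.09 (adjusted p = 0.0024) against 0.77 (adjusted p = 2.4e-04). This second probe set was not called at birth (0.17, adjusted p = 0.63) or to 28 dpn (-0.52, adjusted p = 0.13). Without the uneven arrays it was not called either (0.60, adjusted p = 0.19, and -0.94, adjusted p = 0.051). From 28 to 188 dpn it changed by -0.75 (adjusted p = 0.073, and 0.049 without the uneven arrays). The peak and the level in grown pigs thus depend on the probe set read.

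**Figure D2:**
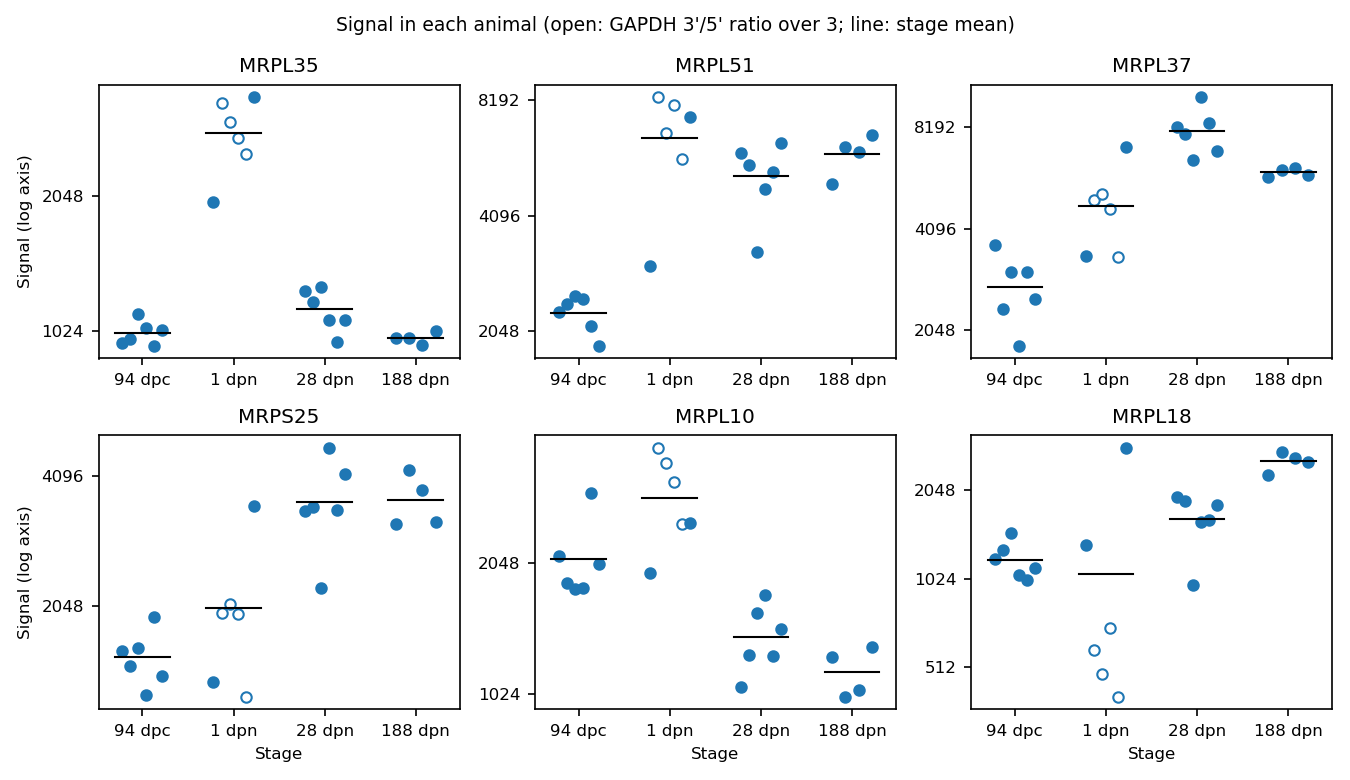
Signal (y axis, log scale) of 6 genes in every animal by stage, with stage means as lines and the uneven 1 dpn arrays as open points. MRPL35 stands high only at 1 dpn (1977 to 3388), MRPL51, MRPL37 and MRPS25 are higher at 28 and 188 dpn than in the fetus, MRPL10 is lower there, and MRPL18 is split at 1 dpn between uneven arrays (407 to 694) and even ones (1334 and 2853).

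Of the 16 measured large-subunit proteins found only in mitochondria, 11 rose at birth and none fell, with or without the uneven arrays. The 11 were not the same genes. Without the uneven arrays MRPL45 and MRPL52 lost the call, and MRPL46 (named after its values were seen) and MRPL53 gained it. MRPL51, called in both fits, ran from 1874 to 2528 in fetuses (median 2355) and from 3019 to 8338 in newborns (median 7055). It stayed at 3285 to 6323 at 28 dpn (median 5435) and read 4948, 6163, 5994 and 6652 at 188 dpn. Every born animal exceeded every fetus. The rise was 1.44 ± 0.21 to 1 dpn (adjusted p = 2.1e-05; 1.05 without the uneven arrays) and 1.37 ± 0.24 to 188 dpn (adjusted p = 8.2e-05). MRPL50, of the same class, instead returned to near its fetal level. Its ranges were 257 to 407, 532 to 829 and 278 to 443 over the first 3 stages, and at 188 dpn it read 337, 445, 244 and 402. It rose by 0.87 ± 0.17 (adjusted p = 4.6e-04) and fell by 0.89 ± 0.17 (adjusted p = 6.7e-04), and the changes were 0.87 and -0.89 without the uneven arrays as well.

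In the small subunit, 9 of 20 genes rose at birth and none fell (10 and 0 without the uneven arrays). The median change was 0.47 (0.72 without the uneven arrays). Of the 37 large-subunit genes 24 rose and 1 fell (27 and 0), with a median of 0.75 (0.83). The difference between the subunits was not tested. MRPS28, related to the bacterial protein S1, was at 636 to 953 in fetuses (median 804), 1054 to 4292 in newborns (median 2157) and 690 to 1213 at 28 dpn (median 1037), and read 937, 909, 1080 and 1015 at 188 dpn. Newborns did not overlap fetuses, but the lowest newborn overlapped the later stages. It rose by 1.48 ± 0.23 (adjusted p = 3.7e-05; 0.90 without the uneven arrays) and fell by 1.19 ± 0.23 (adjusted p = 7.0e-04). Without the uneven arrays the fall was -0.61 (adjusted p = 0.11).

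MRPS15, which binds the ribosomal RNA of the small subunit, was at 2438 to 3068 in fetuses (median 2749) and 4316 to 10286 in newborns (median 8275). It was at 3299 to 5155 at 28 dpn (median 4600) and read 3404, 3613, 3253 and 3417 at 188 dpn. All born animals exceeded all fetuses. The rise was 1.48 ± 0.18 (adjusted p = 1.4e-06; 1.02 on the even and 1.72 on the uneven arrays). The fall to 28 dpn was -0.80 ± 0.18 (adjusted p = 0.002; -0.33 without the uneven arrays, adjusted p = 0.29). MRPS21 was at 5154 to 7092 in fetuses and 8715 to 14639 in newborns without overlap, then at 6100 to 8027 at 28 dpn. Its rise of 1.04 ± 0.15 (adjusted p = 2.1e-05) and fall of -0.82 ± 0.15 (adjusted p = 5.1e-04) held without the uneven arrays (0.94 and -0.72).

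MRPS12, a protein of the decoding centre, gives a less steady picture. Fetal signals were 603 to 1045 (median 809). The 6 newborns read 449, 2322, 2315, 2364, 2165 and 2590, the first being an even array below every fetus and the last an even array above every other animal. The rise was 1.12 ± 0.31 (adjusted p = 0.0076), and without the uneven arrays 0.41 (adjusted p = 0.54). At 28 dpn signals were 634 to 1264 and at 188 dpn 472, 588, 540 and 649. The fall of -0.88 ± 0.31 to 28 dpn (adjusted p = 0.045) was not called in 19 of 22 fits that left out 1 animal. Its other 2 probe sets changed at birth by 0.32 (adjusted p = 0.41) and 0.73 (adjusted p = 0.046) with all arrays and by 0.65 and 0.81, not called, without the uneven ones. MRPS2, a small-subunit protein with a bacterial relative, rose by 0.47 ± 0.16 (adjusted p = 0.025; 0.62 without the uneven arrays), a call lost in 5 of those 22 fits. The 2 MRPS2 probe sets were called in opposite directions from 1 dpn to 28 dpn (-0.65 and 1.20), and without the uneven arrays they changed by -0.80 (adjusted p = 0.014) and 0.15 (adjusted p = 0.74).

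**Figure D3:**
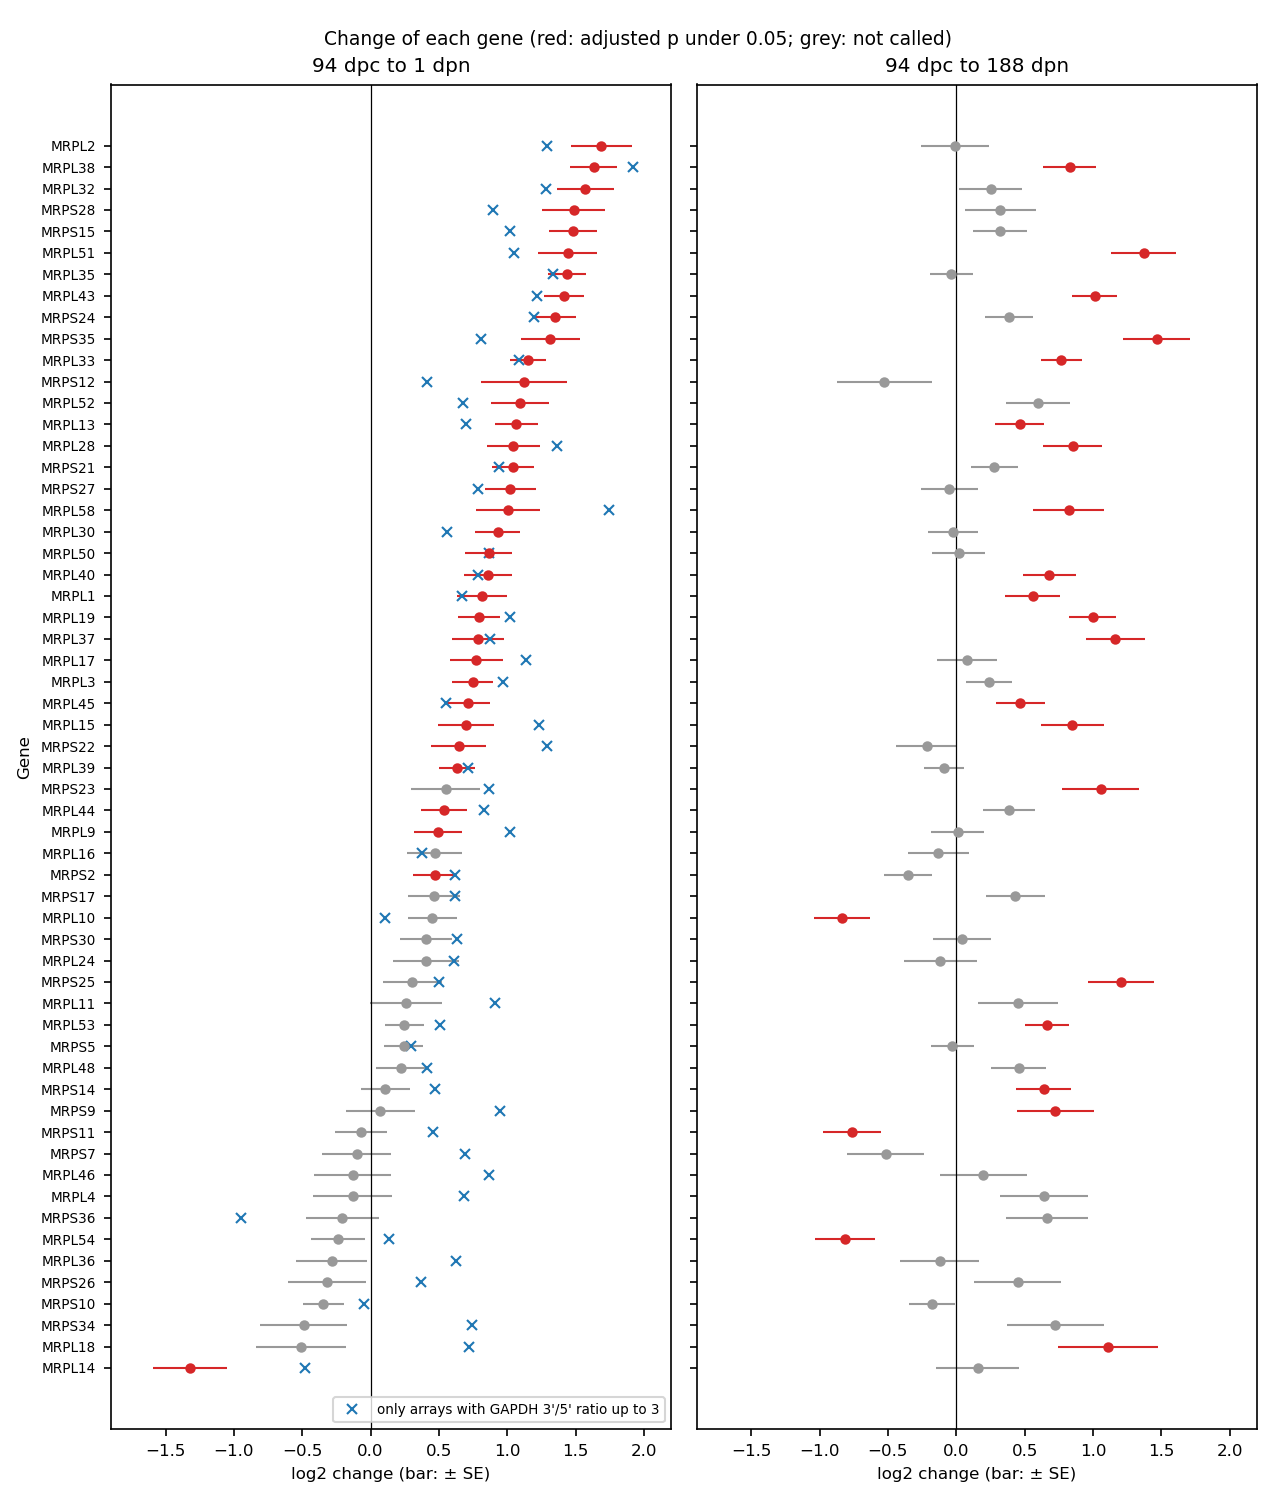
Log2 change ± SE of each of the 58 genes (x axis) from 94 dpc to 1 dpn and to 188 dpn, in the same order of genes, with called genes in red and, at left, the change without the uneven arrays as a cross. At 1 dpn 33 points are red to the right of 0 and only MRPL14 is red to its left (-1.32), and at 188 dpn 20 are red to the right and 3 to the left.

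Even and uneven arrays of the newborns differed in many of these genes. At 1 dpn, 36 of the 58 had a higher mean on the 2 even arrays than on the 4 uneven ones. In 10 it was at least 1 log2 unit higher, and in 2, MRPS12 and MRPS36, at least 1 unit lower. The share of all probe sets that differed as much is not given here. MRPL14, an intersubunit protein to which the assembly factor MALSU1 binds, was the one gene that fell at birth. Fetuses read 4830 to 6842 (median 5082). Newborns read 2863, 2029, 1804, 1918, 889 and 5057, and the first and last of these were the even arrays. The fall of 1.32 ± 0.27 (adjusted p = 6.4e-04) became -0.48 (adjusted p = 0.17) without the uneven arrays. The 28 dpn animals lay at 2996 to 4877 and the 188 dpn animals read 5896, 7083, 5160 and 5740. Its rise of 0.88 ± 0.27 from 1 to 28 dpn (adjusted p = 0.021) was likewise 0.04 without the uneven arrays.

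MRPL18, a protein of the central protuberance, and MRPS34, a mitochondria-specific small-subunit protein, split the same way. The 4 uneven newborns had MRPL18 signals of 407 to 694 and the even ones 1334 and 2853, with fetuses at 1013 to 1466. MRPS34 read 450 to 629 on the uneven arrays and 1286 and 3259 on the even ones, with fetuses at 1026 to 1359. At birth MRPL18 changed by -0.51 (adjusted p = 0.26) with all arrays and 0.72 (adjusted p = 0.064) without the uneven ones. MRPS34 changed by -0.49 (adjusted p = 0.26) and 0.74 (adjusted p = 0.043). Both were called higher at 28 dpn than at 1 dpn with all arrays (0.94 each, adjusted p = 0.042 and 0.036), and both had the opposite sign without the uneven ones (-0.29, adjusted p = 0.54, and -0.28, adjusted p = 0.51). A second MRPL18 probe set rose at birth by 1.31 (adjusted p = 2.3e-04), and changed by 0.76 (adjusted p = 0.056) without the uneven arrays. From 1 to 28 dpn that probe set was called lower with all arrays (-0.82, adjusted p = 0.017), opposite to the first. Without the uneven arrays it changed by -0.27 (adjusted p = 0.58).

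Newborn replicate 6, an even array, gave the highest newborn signal in 37 of the 58 genes, and replicates 5 (uneven) and 1 (even) the lowest in 21 and 20. Without replicate 6, 31 genes rose and 4 fell from 94 dpc to 1 dpn. Spread within the 1 dpn group was also the widest, with a median SD over the 58 genes of 0.442 log2 units, against 0.172 at 94 dpc, 0.220 at 28 dpn and 0.152 at 188 dpn. Over all probe sets these medians were 0.586, 0.303, 0.420 and 0.397. Over probe sets with a mean at least that of the dimmest of the 58 they were 0.440, 0.196, 0.259 and 0.243. At 1 dpn the spread of the 58 genes was thus like that of other probe sets in that range of brightness.

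**Figure D4:**
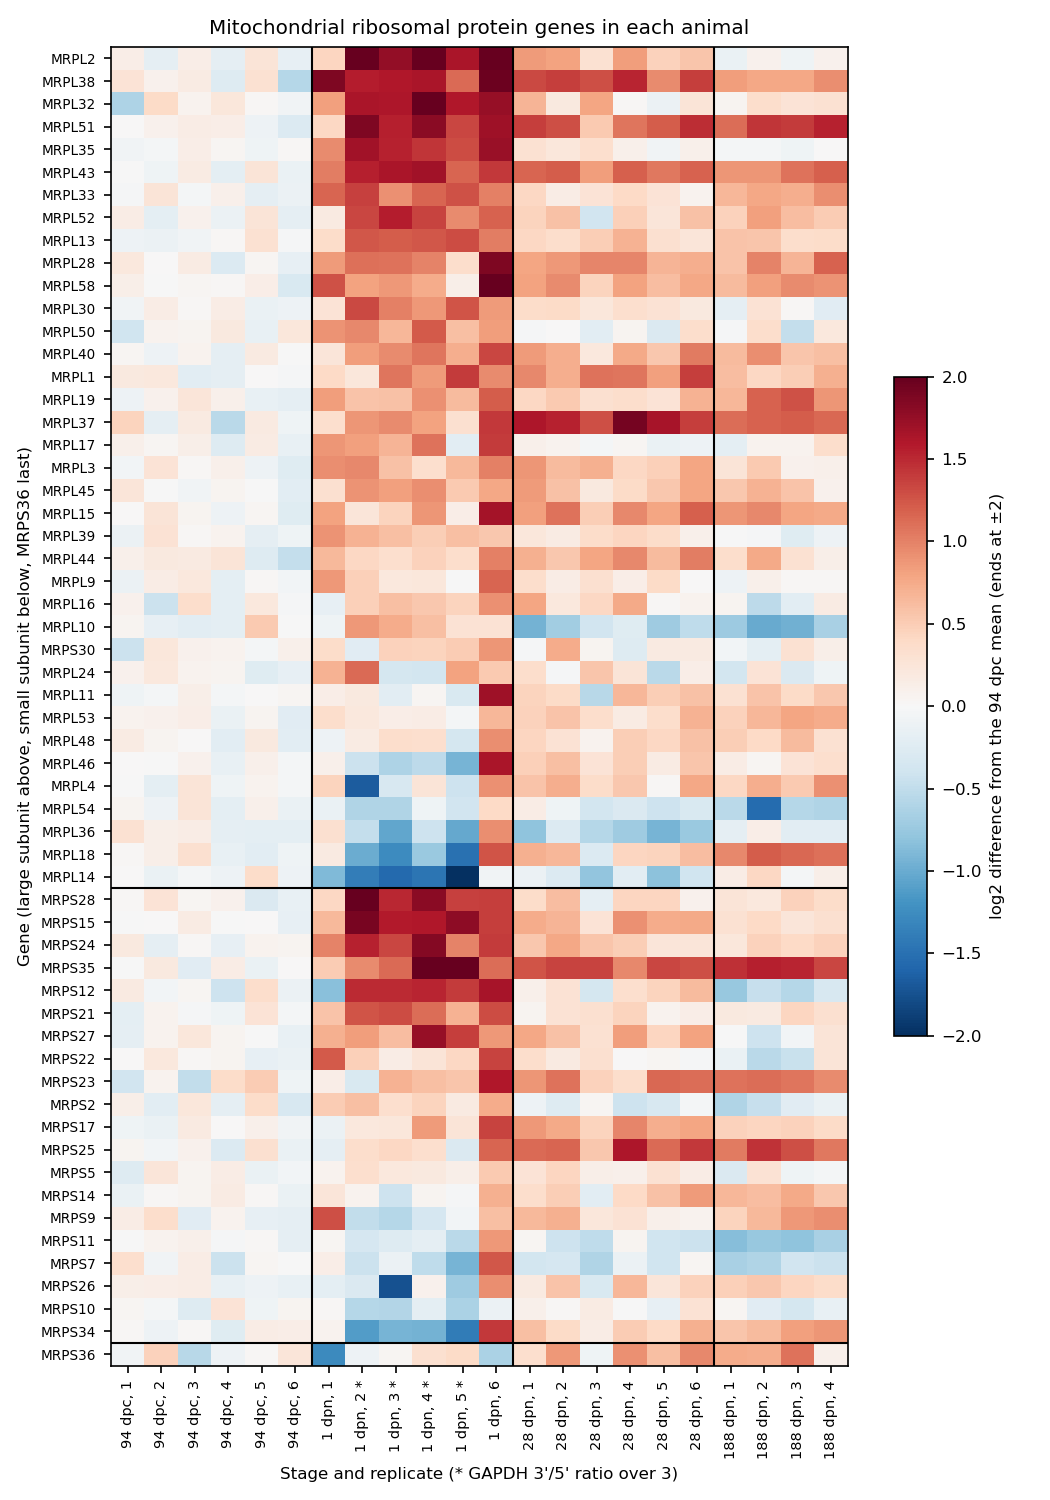
Log2 difference of each gene (rows) in each animal (columns) from its own mean at 94 dpc, with colours ending at -2 and 2 and the uneven 1 dpn arrays starred. Rows run by change from 94 dpc to 1 dpn within the 37 large-subunit genes, the 20 small-subunit genes and MRPS36, and the columns of replicates 1 and 6 at 1 dpn show the lowest and highest newborn of 20 and 37 genes.

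From 1 dpn to 28 dpn, 16 of the 58 genes fell and 6 rose, while 8.39% of all probe sets fell and 13.9% rose. The median change was -0.21, and that of all probe sets 0.10. This step uses the same newborn arrays as the one before it, so the rises and falls of a gene are not independent. Without the uneven arrays 15 fell and 1 rose (5.39% and 11.2%), and 9 of the 16 falls were still called: MRPL10, MRPL17, MRPL32, MRPL33, MRPL35, MRPL50, MRPS2, MRPS21 and MRPS24. With only the uneven arrays as newborns 17 fell and 12 rose (11.2% and 15.8%). After median centring of the arrays, 21 fell and 2 rose, and the share of all probe sets called in that fit is not given here. Of the 34 genes whose proteins have bacterial relatives, 14 fell and 2 rose (12 and 0 without the uneven arrays). Among the mitochondria-specific ones 2 of 16 in the large subunit and 0 of 7 in the small subunit fell (2 and 1 without the uneven arrays). The difference between these classes was not tested.

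Most of the rises at this step were not called without the uneven arrays. MRPL37, a mitochondria-specific large-subunit protein, climbed in both steps, from 1834 to 3652 in fetuses (median 2783) and 3366 to 7144 in newborns (median 4826) to 6541 to 10095 at 28 dpn (median 8029). At 188 dpn it read 5842, 6107, 6207 and 5927, above every fetus. The rise from 1 to 28 dpn was 0.78 ± 0.19 (adjusted p = 0.0052), and 0.69 (adjusted p = 0.093) without the uneven arrays. With only the uneven arrays as newborns it was 0.82 (adjusted p = 0.0021). MRPS25, specific to the mitochondrial small subunit, was at 1264 to 3500 in newborns and 2259 to 4774 at 28 dpn. It rose by 0.86 ± 0.22 (adjusted p = 0.0058). Its change was 0.67 (adjusted p = 0.15) without the uneven arrays and 0.96 (adjusted p = 0.0010) with only those as newborns. Leaving out 1 animal ended the call of neither MRPL37 nor MRPS25 in any of 22 fits.

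MRPS36, the dehydrogenase subunit, was the only one of the 6 also called without the uneven arrays. It read 83, 205, 229, 280, 295 and 138 in the newborns, the first and last being the even arrays, and 208 to 447 at 28 dpn (median 380). The rise was 0.81 ± 0.27 (adjusted p = 0.032) with all arrays and 1.55 (adjusted p = 0.0025) without the uneven ones, but 0.44 (adjusted p = 0.19) with only the uneven ones. At birth it was not called with all arrays (-0.21, adjusted p = 0.6), and it was the one gene lower without the uneven ones (-0.95, adjusted p = 0.035).

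From 28 dpn to 188 dpn 55 of the 58 genes were not called. MRPL19 and MRPL33 rose and MRPS27 fell, against 3.65% and 8.2% of all probe sets. MRPL19 went from 751 to 1012 at 28 dpn (median 810) to 985, 1414, 1508 and 1157, with an overlap of a single grown pig, and rose by 0.57 ± 0.17 (adjusted p = 0.033). MRPS27, a pentatricopeptide repeat protein, fell from 1190 to 1727 (median 1558) to 957, 720, 924 and 1149 without overlap, by 0.68 ± 0.21 (adjusted p = 0.036). None of the 3 was firm: leaving out 1 animal ended the call of MRPL19 in 6 of 22 fits, of MRPL33 in 5 and of MRPS27 in 7, with adjusted p up to 0.126, 0.0874 and 0.139. The counts higher and lower were 2 and 0 after median centring and 1 and 1 with quantile normalization, without a share of all probe sets given. Without the uneven newborn arrays, which change only the shared estimate of spread here, they were 5 and 1 (background 5.47% and 10.9%), and with only the uneven newborn arrays 4 and 5 (5.52% and 11.2%).

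Grown pigs were compared with fetuses without using any newborn value, apart from the shared estimate of spread. From 94 dpc to 188 dpn 20 genes rose and 3 fell, against 13.6% and 22.5% of all probe sets, and the median change was 0.39 against -0.07. In 19 of the 20 and in all 3 the animals of the 2 stages did not overlap. Of all probe sets, 11.4% were called higher and 19.2% lower without overlap. Without the uneven arrays 25 rose and 3 fell (15.8% and 24.7%), and with only the uneven newborn arrays 25 and 5 (15.5% and 24.5%). After median centring of the arrays 31 rose and 1 fell. Centring also raised the median change of all probe sets, and their share called in that fit is not given here. The count of 31 is therefore not read as a larger rise of these genes. Between 94 dpc and 28 dpn, a comparison added after the data were seen, 22 rose and 1 fell (13.1% and 17.2%), with a median of 0.39 against 0.02. Without the uneven arrays 25 rose and 2 fell (15.7% and 19.7%), and with only the uneven newborn arrays 28 and 2 (15.4% and 19.7%). Both comparisons use the same fetuses.

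The largest rises to 188 dpn were in proteins specific to mitochondria. MRPS35 went from 242 to 328 in fetuses (median 286) to 811, 867, 845 and 741, a rise of 1.47 ± 0.24 (adjusted p = 4.7e-05), and by 28 dpn it had already risen by 1.26 ± 0.22 (adjusted p = 1.4e-04). MRPL51 (1.37) is described above. MRPS25 went from 1274 to 1935 (median 1549) to 3179, 4243, 3814 and 3216, a rise of 1.21 ± 0.24 (adjusted p = 3.7e-04), and by 1.17 ± 0.22 to 28 dpn (adjusted p = 2.8e-04). MRPL37 rose by 1.16 ± 0.21 to 188 dpn (adjusted p = 1.6e-04) and by 1.56 ± 0.19 to 28 dpn (adjusted p = 2.6e-06). For these genes no grown pig overlapped a fetus.

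Next came MRPL18 and MRPS23. MRPL18 read 2300, 2755, 2635 and 2551 at 188 dpn, above all fetuses, and rose by 1.11 ± 0.37 (adjusted p = 0.021; second probe set 1.05, adjusted p = 0.0038). Without grown pig 2 the adjusted p was 0.0503. MRPS23, another mitochondria-specific small-subunit protein, went from 167 to 350 (median 240) to 529, 539, 524 and 480, a rise of 1.06 ± 0.28 (adjusted p = 0.0051). MRPL53, a protein near the stalk, rose less, from 3648 to 4653 (median 4441) to 5844, 6773, 7326 and 7102 (0.66 ± 0.16, adjusted p = 0.0023). All of the 20 below MRPS23 in size rose by 0.46 to 1.01.

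The 3 genes that were lower in grown pigs sit at the stalk base or on the small-subunit platform. The stalk is the arm of the large subunit that recruits translation factors, and MRPL10 is the protein on which its MRPL12 copies are mounted. MRPL10 ran from 1779 to 2964 in fetuses (median 1937), 1940 to 3758 in newborns (median 2824) and 1062 to 1728 at 28 dpn (median 1351), and read 1242, 1010, 1047 and 1309 at 188 dpn. All animals of the last 2 stages lay below all fetuses. It fell by 1.03 ± 0.18 from 1 to 28 dpn (adjusted p = 2.7e-04; -0.69 without the uneven arrays, adjusted p = 0.047). The change from 94 dpc was -0.83 ± 0.20 to 188 dpn (adjusted p = 0.0023) and -0.58 ± 0.18 to 28 dpn (adjusted p = 0.018), the latter call lost without fetus 5 (adjusted p = 0.0545).

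MRPL54, also at the stalk, went from 469 to 646 (median 531) to 365, 174, 359 and 347, a change of -0.81 ± 0.22 (adjusted p = 0.0057). The value of 174 stood apart, and without that grown pig the change was -0.57 (adjusted p = 0.0438). MRPS11, whose bacterial relative lies on the platform, went from 2333 to 2830 (median 2668) to 1459, 1551, 1497 and 1686 (-0.77 ± 0.21, adjusted p = 0.0065). MRPL54 and MRPS11 kept their sign but were not called after median centring of the arrays. Of the 4 stalk genes measured, MRPL53 was higher, MRPL10 and MRPL54 lower and MRPL11 not called at 188 dpn.

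Over the 4 stages 14 genes were not called, MRPS5 and MRPS10 among them. The 14 also held MRPL9, called higher at birth, and MRPS9, called higher at 188 dpn than at 94 dpc. Their adjusted p in the limma F test over the stages was 0.071 and 0.12. MRPS5 and MRPS10, in the body and head of the small subunit, had among the smallest ranges of stage means. MRPS5 was at 566 to 805, 711 to 988 and 727 to 919 over the first 3 stages and read 554, 833, 640 and 662 at 188 dpn. MRPS10 was at 1333 to 1919, 1024 to 1618 and 1414 to 1944, then 1631, 1358, 1238 and 1435. The ranges of every stage overlapped in both genes, and the highest and lowest stage means lay 0.27 log2 units apart for MRPS5 and 0.41 for MRPS10. With only the uneven arrays as newborns, MRPS10 changed by -0.49 at birth (adjusted p = 0.010) and 0.56 to 28 dpn (adjusted p = 0.0057). Without the uneven arrays it changed by -0.05 (adjusted p = 0.89) and 0.12 (adjusted p = 0.72).

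Genes that work with these ribosomes were counted from lists. Of the 8 mitochondrial translation factors measured, 6 rose and 1 fell at birth, with a median of 1.01 (4 and 0, median 0.73, without the uneven arrays). TSFM, the exchange factor of the elongation factor, went from a mean signal of 876 ± 74 to 3468 ± 823 (SD, n = 6 each), a rise of 1.94 ± 0.15 (SE; adjusted p = 1.3e-08; 1.67 without the uneven arrays). The elongation factor TUFM itself went from 3479 ± 478 to 8295 ± 1133 (1.25 ± 0.15, adjusted p = 1.4e-06; 1.16). At 188 dpn TUFM was below its fetal level at 2413 ± 383 (n = 4; -0.53 ± 0.17, adjusted p = 0.015), while TSFM was above it (0.65 ± 0.17, adjusted p = 0.0046).

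Of 23 assembly factors, 12 rose and 1 fell at birth (7 and 0 without the uneven arrays), METTL17 by 1.66 ± 0.17 (adjusted p = 2.4e-07; 1.36) and TBRG4 by 1.44 ± 0.17 (adjusted p = 1.3e-06; 1.45). Of 11 mitochondrial tRNA synthetases and amidotransferase subunits, which charge tRNAs, 4 rose and 1 fell (5 and 0). The largest of these rises were in FARS2 (1.73 ± 0.22, adjusted p = 2.8e-06; 1.38) and QRSL1 (1.69 ± 0.18, adjusted p = 4.4e-07; 1.18). A list of mitoribosomal proteins with other symbols also held OXA1L, the insertase that ribosomes dock to, and LACTB, a filament-forming mitochondrial protein that is not ribosomal. It counted 4 rises in 6 both ways, among them OXA1L (1.48 ± 0.15, adjusted p = 1.5e-07; 1.19) and CHCHD1 (1.01 ± 0.18, adjusted p = 1.9e-04; 0.77).

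The proteins translated on these ribosomes join nuclear-encoded subunits of the respiratory chain. Of 58 such nuclear genes and ATP synthase genes, 52 rose and 0 fell from 94 dpc to 1 dpn (median 1.21; 47 and 0, median 0.85, without the uneven arrays). Between 28 and 188 dpn 15 of them fell and 0 rose (median -0.43), whereas 1 mitoribosomal gene fell and 2 rose (median -0.07). The difference between the lists was not tested. Cytosolic ribosomal proteins counted 27 rises and 3 falls of 63 at birth (median 0.31), and 3 and 0 without the uneven arrays. Their direction flipped to 4 rises and 22 falls with quantile normalization, and the mitoribosomal genes then counted 37 and 1. The share of all probe sets called in that fit is not given here, so neither count is set against a background. Genes of mitochondrial import and chaperones counted 15 rises and 1 fall of 22 (13 and 0).

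Regulators of these genes showed no common direction at birth. Of 9 measured, 2 rose and 0 fell, with a median of -0.18 (0 and 2, median 0.03, without the uneven arrays). Of all probe sets 10.9% rose and 21.7% fell (7.79% and 17.6%). The 2 that rose are not named here. PPARGC1A, a coactivator of mitochondrial biogenesis, was called only without the uneven arrays. It went from 492 ± 102 to 339 ± 126 (-0.60 ± 0.27, adjusted p = 0.092; -1.08 without the uneven arrays, adjusted p = 0.039). Of 6 genes that maintain and express mitochondrial DNA, a separate list, 2 rose and 1 fell (3 and 1 without the uneven arrays). SUPV3L1, an RNA helicase, rose by 0.93 (adjusted p = 3.8e-04; 0.75 without the uneven arrays) and ELAC2, which trims tRNA ends, by 0.90 (adjusted p = 6.9e-05; 0.91). TFAM, which packages and transcribes mitochondrial DNA, fell by 0.51 ± 0.20 (adjusted p = 0.049; -0.98).

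**Figure D5:**
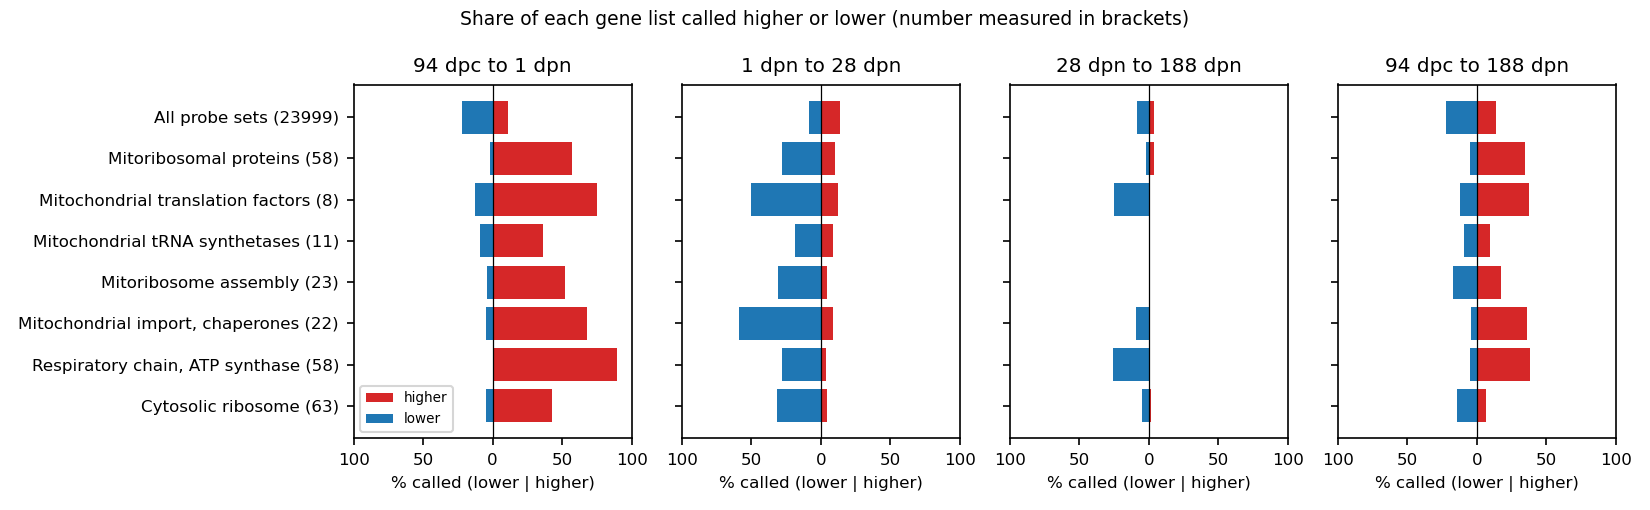
Percent of each list called higher (red, right) or lower (blue, left) in the 4 comparisons (x axis), with all probe sets tested at the top and the number of measured genes in brackets. At 1 dpn against 94 dpc 33 of 58 mitoribosomal genes and 52 of 58 respiratory chain and ATP synthase genes are red, against 10.9% of all probe sets.

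Markers of other cells moved over the same ages. At birth all 10 cell cycle genes, 8 of 10 endothelial and 5 of 6 fibroblast markers fell (10, 6 and 5 without the uneven arrays). Of all probe sets 21.7% fell at birth (17.6% without the uneven arrays). Summed signals per animal went from 6927 to 8125 down to 928 to 2548 for the cell cycle genes, from 15660 to 18536 down to 5230 to 6871 for endothelium and from 41166 to 57941 down to 15621 to 25735 for fibroblasts. Of 8 macrophage markers 2 fell (0 without the uneven arrays), near the share of all probe sets, and their sums went from 3579 to 4461 to 1730 to 4156. The sums of 5 adipocyte markers went up, from 4154 to 7259 in fetuses to 9755 to 16798 in newborns. Their median log2 signal per animal was 8.78 to 9.86 in fetuses and 7.97 to 9.63 in newborns. For 4 erythroid markers the sums were 1000 to 1700 and 550 to 1832. By 188 dpn the sums were 1113 to 1677 for cell cycle, 3706 to 5530 for endothelium and 11624 to 18026 for fibroblasts. From 94 dpc to 188 dpn 13 of 14 muscle markers rose, to a sum of 763164 to 863635, against 13.6% of all probe sets. With quantile normalization 5 of the 14 muscle markers rose over that span. The share of all probe sets called in that fit is not given here. The part of these shifts, and of RNA quality, in the mitoribosomal changes was not tested.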

How the data were processed

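The authors deposited 1 linear signal intensity per probe set for each of 22 porcine Affymetrix arrays. The submitters' processing notes name GCOS 1.1.1. Signals spanned 1 to 111760, and all arrays shared a trimmed mean (2% off either tail) of 500.1 to 500.2. They were used as log2(signal + 16), without further normalization, which understates changes of dim genes. After 124 control probe sets were left out, 23999 were compared with limma 3.58.1 (R 4.3.3, statmod 1.5.0). The fit had 1 mean per stage, moderated variances and Benjamini-Hochberg adjustment over all probe sets of a comparison. A gene was called, and is said to rise or fall, at an adjusted p under 0.05. Names came from the platform annotation, and 6 probe sets with several mitoribosomal symbols were not used. Background was the 95th percentile of 23 controls with absent targets. The code was tested on simulated data.

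The genes and lists were chosen with earlier results of these data known. Genes named with values were the up to 6 largest called rises and falls per comparison, genes called in opposite directions in successive steps, the extremes of level and range, genes with discordant probe sets, and MRPS30, MRPL44, MRPS12 and MRPS36. Exceptions are marked. From lists, up to 3 genes per comparison were named. Alternatives changed scaling, pseudocount, variance model, probe sets or arrays. The fit with only the uneven 1 dpn arrays and the comparison of 94 dpc with 28 dpn were added after seeing the data.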

Additional observations from a re-analysis of the deposited data

Results flagged for a closer look

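Each named gene, and the median of all 58 genes, was tested in each stage. Of these 132 sets, 10 held an animal standing apart from the others of its stage by Dixon's test at 95%, and chance gives about 1 in 20. All values are log2(signal + 16). Newborn replicate 1, an even array, was lowest of its stage in 4 genes, MRPL2 at 11.18, MRPL32 at 9.96, MRPL51 at 11.57 and MRPS12 at 8.86. Fetus 5 was highest for MRPL10 at 11.54 and MRPL14 at 12.74. At 28 dpn, animal 3 was lowest for MRPL18 at 9.95 and MRPS15 at 11.69, and animal 4 was lowest for MRPS35 at 9.19. Grown pig 2 was lowest for MRPL54 at 7.57.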

How the results depend on the processing

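The counts of 33 higher genes from 94 dpc to 1 dpn, 16 lower from 1 dpn to 28 dpn and 44 over the 4 stages stayed within 1.5 times of these values in every alternative run (30 to 41, 11 to 21 and 41 to 52). Small counts moved more, and the cause was not tested. From 94 dpc to 1 dpn the count lower was 4 with array weights, 2 among probe sets above the median one and 7 with only the uneven 1 dpn arrays. From 1 to 28 dpn the count higher was 2 with centred arrays, 2 in fits of only those stages, 1 without the uneven arrays, 1 with the GAPDH ratio as a covariate and 12 with only the uneven arrays. From 28 to 188 dpn the counts higher and lower were 1 and 1 with quantile normalization, 2 and 0 with centred arrays, 2 and 3 with array weights, 1 and 3 in fits of those stages, 2 and 4 above the median probe set, 1 and 1 with gene means, 5 and 1 without the uneven arrays, 2 and 4 with the covariate and 4 and 5 with only the uneven arrays. From 94 dpc to 188 dpn they were 31 and 1 with centred arrays, 5 lower in fits of those stages and 5 lower with only the uneven arrays. From 94 to 28 dpn the count lower was 3 in fits of those stages, and 2 with trended variances, array weights, bright probe sets, the even arrays, the covariate and the uneven arrays. Centring moved the median change of all probe sets from 94 dpc to 1 dpn from -0.08 to 0.18, and to 188 dpn from -0.07 to 0.20.

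Leaving out 1 animal in turn gave 30 to 35 higher and 1 to 4 lower from 94 dpc to 1 dpn, 3 to 10 and 15 to 18 from 1 to 28 dpn, 0 to 2 and 0 to 3 from 28 to 188 dpn, 16 to 23 and 3 to 4 from 94 dpc to 188 dpn, 18 to 24 and 0 to 2 to 28 dpn, and 42 to 48 over the stages. The 4 lower at birth and the 10 came without newborn 6, the 3 higher from 1 to 28 dpn without animal 2, 4 or 6 of 28 dpn. From 28 to 188 dpn none was higher without grown pig 2 or 3, none was lower without animal 1, 2, 4 or 6 of 28 dpn or grown pig 1, 2 or 3, and 3 were lower without newborn 1. The 0 lower from 94 dpc to 28 dpn came without fetus 5.

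Signs reversed with the mean of all probe sets of a gene for MRPL3 (-0.22) and MRPS2 (-0.070) from 94 dpc to 1 dpn, MRPS2 (0.27) from 1 to 28 dpn, and MRPL33 from 28 dpn (-0.12) and from 94 dpc (-0.16) to 188 dpn. From 1 to 28 dpn they reversed for MRPL18 and MRPS34 without the uneven arrays (-0.29 and -0.28) and with the covariate (-0.083 and -0.042). The animals of different stages are not pairs, so no paired analysis applied, and litters could not be modelled because the gilt of each animal is unknown. The number of arrays limits precision.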
